A study of Mus musculus with 12 samples.

Results

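The comparison described here is the overnight exposure of mouse B cell precursors to LY2090314, a small molecule inhibitor of the kinase GSK3, measured by bulk RNA sequencing. Its members are 6 of the 12 libraries of the series, defined by their labels. They are 3 unsorted wildtype cultures numbered 242, 249 and 251, each sequenced untreated and after 40 nM LY2090314. The comparison was chosen with earlier results of these data known. All 6 carry the genotype label control, were grown from hematopoietic stem cells with IL7 in supplemented Iscove's medium, and went to RNA isolation without sorting. They therefore keep whatever other blood cells such a culture still holds, and the labels give neither the age nor the sex of the animals. The remaining 6 libraries are B220-sorted precursors, 3 from control mice and 3 in which Mb1-Cre stabilises β-catenin, and they enter only an alternative fit. Nothing in the labels makes the numbers separate animals, and the p-values rest on the spread between cultures, part of which may be technical.

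In the canonical WNT pathway, a destruction complex built on AXIN and APC lets the kinases CK1 and GSK3 phosphorylate β-catenin, which sends it to the proteasome. When GSK3 is blocked, β-catenin escapes, enters the nucleus and joins TCF and LEF factors at their target genes, among which are several inhibitors of the pathway itself. GSK3 has many further substrates, including glycogen synthase, MYC and D-type cyclins. B cell precursors depend on IL7 and on the pre-B cell receptor (pre-BCR), in which a surrogate light chain takes the place of the immunoglobulin light chain.

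The values are FPKM, fragments per kilobase of transcript scaled to the library's total. The untreated libraries held 42.3, 42.7 and 37.3 M counted fragments and the inhibitor libraries 48.1, 38.0 and 38.5 M. Cultures 242, 249 and 251 are given in this order throughout. B lineage genes were abundant in the untreated libraries: the lineage factor gene Pax5 stood at 477, 433 and 744 FPKM and the receptor chain gene Cd79b at 578, 415 and 572. The sex-linked transcripts matched within each number, since Xist stood at 205 and 255 FPKM in both libraries of culture 242 and at 0.176 or less in the other 4. The Y chromosome genes Ddx3y and Eif2s3y were listed at 0 in culture 242. In cultures 249 and 251 they stood at 13.6 to 37.7 and 61.7 to 92.1 FPKM. Sex thus differed between culture 242 and cultures 249 and 251, while these values do not tell 249 and 251 apart as animals. Both libraries of culture 249 stood apart. Their summed FPKM of 13 neutrophil markers was 7256 untreated and 7135 with the inhibitor, against 41.7 to 453 in the other 4 libraries. Their 16 monocyte and macrophage markers summed to 3129 and 4301 FPKM, against 81.1 to 224. Elane and Mpo, granule enzymes of immature neutrophils, stood at 66.1 and 61.1 FPKM in untreated 249 and at 0.642 or less in cultures 242 and 251. The counts of calls, and the log2 fold changes of the main genes, are therefore also given for cultures 242 and 251 alone.

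**Figure D1:**
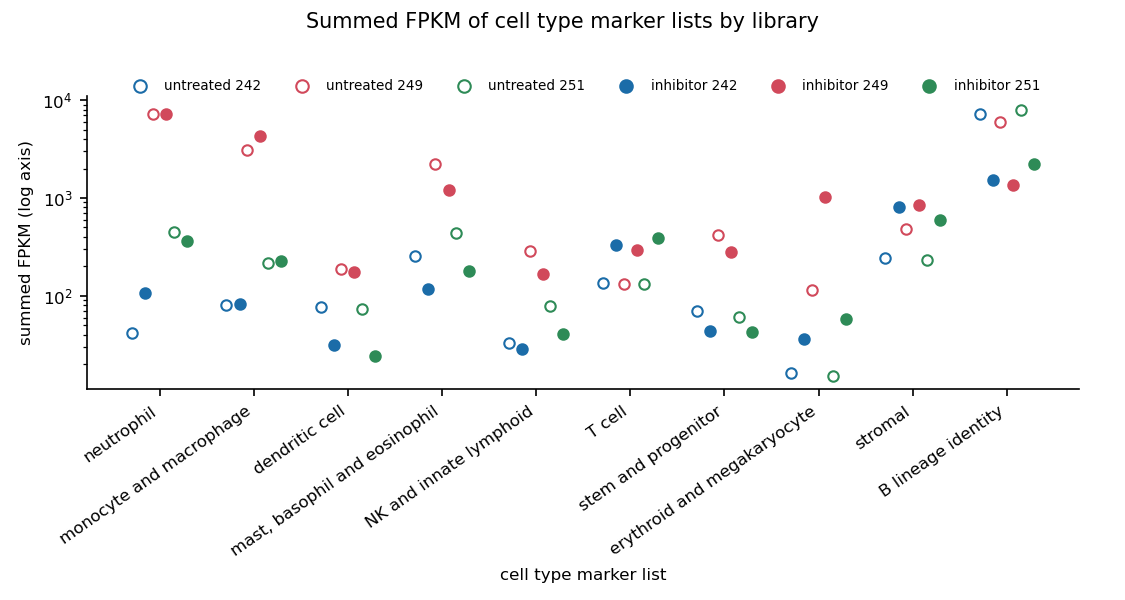
Summed FPKM of the 10 cell type marker lists (horizontal axis) in each of the 6 unsorted libraries on a log axis, with open points for untreated and filled points for inhibitor libraries and 1 colour per culture. Culture 249 stands apart in the neutrophil (7256 and 7135) and macrophage (3129 and 4301) lists, while the B lineage identity sum is lower with the inhibitor in each culture.

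Within cultures, the inhibitor changed a large share of the transcriptome, and the changes of the 3 cultures resembled each other. WNT feedback genes were among the strongest rises, and the surrogate light chain genes and the B cell factor gene Spib among the strongest falls. The log2 fold change (log2FC) is the mean over cultures of the difference in log2(FPKM + 1), which makes changes of low genes look smaller than they are, and its standard error (SE) is that of limma. Of 12685 genes tested with limma, 1783 (14.1%) were called higher and 2033 (16%) lower at a Benjamini-Hochberg adjusted p under 0.05, together 30.1%. Changes of 2-fold or more were found for 703 genes called higher (5.54%) and 744 called lower (5.87%). The groups did not overlap for 4831 of the tested genes (38.1%), and for 62.6% with cultures 242 and 251 alone, where fewer libraries can overlap. Of the 3816 called genes, 3815 had the same sign in 3 of 3 cultures, which a call from 3 pairs nearly requires. Cultures 242 and 251 alone gave 1539 higher (12.1%) and 1734 lower (13.6%) of 12740 genes (25.7% together), of which 778 higher (6.11%) and 902 lower (7.08%) by 2-fold or more. Across the 12685 genes, which are not independent replicates, the changes of cultures 242 and 251 had a Pearson r of 0.81, those of 242 and 249 of 0.77 and those of 249 and 251 of 0.77. The median log2FC over all tested genes was -0.03. Each count of list members below is to be read beside 14.1% higher and 16% lower of all tested genes. For cultures 242 and 251 alone these shares are 12.1% and 13.6%. A sign test over 3 pairs cannot go below a 2-sided p of 0.25, so single genes rest on the spread that limma pools across genes.

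**Figure D2:**
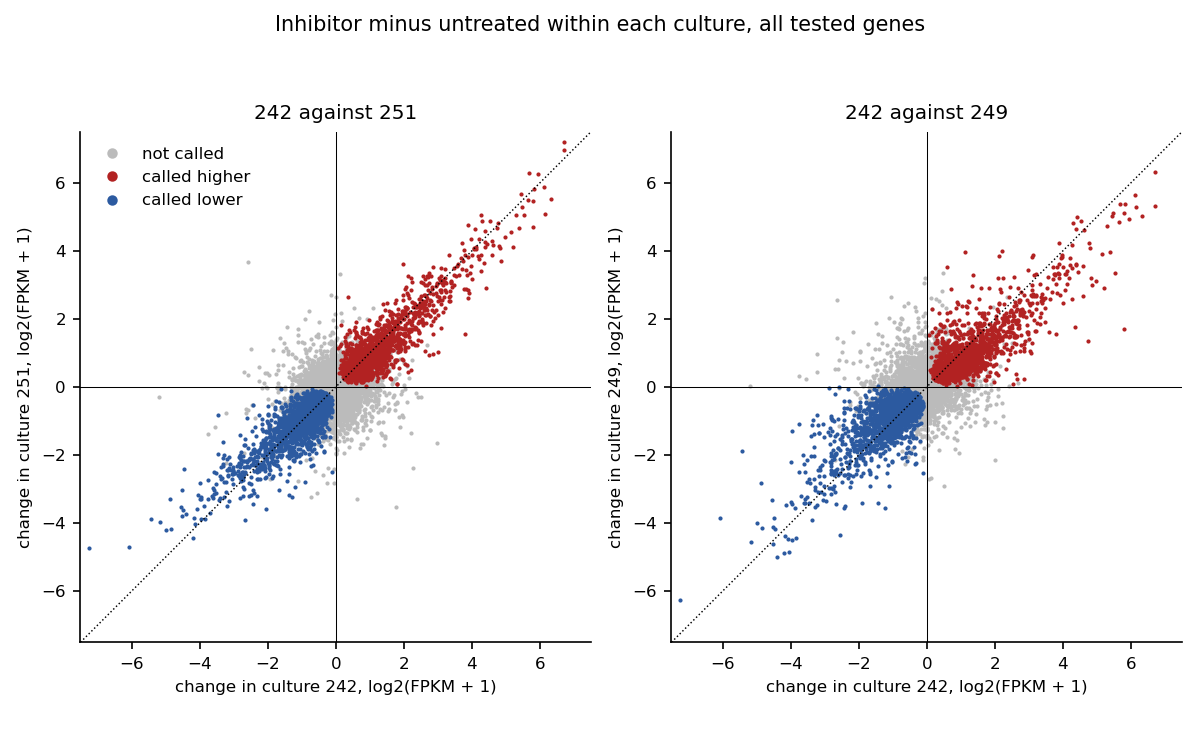
Change with the inhibitor in log2(FPKM + 1) for each of the 12685 tested genes, culture 242 on the horizontal axis against culture 251 (left) and culture 249 (right). Genes called higher are red, genes called lower blue and the others grey, and the dotted line marks equal change; the points follow it with an r of 0.81 on the left and 0.77 on the right.

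The WNT pathway is the arm of the response closest to the kinase that was blocked, and its feedback inhibitors rose steeply from low levels. Nkd1, an inhibitor that binds Dishevelled, stood at 1.54, 1.27 and 1.24 FPKM untreated and at 144, 94.3 and 127 with the inhibitor (log2FC 5.69 ± 0.144 SE, adjusted p = 8.96e-06). Axin2, the inducible scaffold of the destruction complex and the usual reporter gene of the pathway, stood at 2.92, 2.48 and 2.95 untreated and at 71.9, 46.6 and 52.98 with the inhibitor (log2FC 3.92 ± 0.148 SE, adjusted p = 1.42e-05). For both genes every inhibitor library was far above every untreated library, and culture 249 was the lowest of the inhibitor libraries. Kremen1, a receptor for the WNT antagonists of the DKK family, went from 7.84, 6.27 and 6.81 to 238, 137 and 220.5 FPKM (log2FC 4.61, adjusted p = 1.17e-05). Apcdd1, a membrane inhibitor of the pathway, went from 0.252, 0.0599 and 0.229 to 29.5, 24.9 and 21.2 FPKM (log2FC 4.46, adjusted p = 2.04e-05). These genes showed no overlap between the groups either. Znrf3, a ubiquitin ligase that removes WNT receptors (log2FC 2.66), Nkd2 (2.25) and the receptor gene Tnfrsf19 (1.96) rose too, and so did the adhesion receptor gene Cd44 (1.20, adjusted p = 0.00348), a call lost without the filter on low values (0.0501). The transcription factor gene Sp5, a repressor induced by β-catenin, was listed at 0 in every untreated library and stood at 7.30, 3.36 and 6.24 FPKM with the inhibitor.

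Among the nuclear partners of β-catenin, Tcf7 rose and Lef1 did not pass the test. Tcf7, which also serves T cell development, stood at 3.78, 22.5 and 9.63 FPKM untreated and at 136, 186 and 136 with the inhibitor (log2FC 3.84 ± 0.303 SE, adjusted p = 0.000181). Its untreated level was highest in culture 249, and the groups did not overlap. Lef1 stood at 74.2, 74.4 and 63.8 FPKM untreated and at 79.0, 53.4 and 106 with the inhibitor, higher in 2 cultures and lower in 249 (log2FC 0.11, adjusted p = 0.71). Myc, a target of the pathway in colon, fell from 88.5, 58.8 and 48.1 to 12.6, 12.8 and 9.88 FPKM (log2FC -2.33 ± 0.145 SE, adjusted p = 6.85e-05). Lgr5, a receptor for the WNT amplifiers of the R-spondin family and a stem cell marker of the gut, fell from 7.96, 4.20 and 7.78 to 0.138, 0.142 and 0.518 FPKM (log2FC -2.57, adjusted p = 0.000374). Of the 24 listed WNT target and feedback genes, 13 passed the filter of 1 FPKM in 3 libraries, 10 were higher, 2 lower and 1 was not called. Their median log2FC was 2.66, and Apcdd1 and Sp5 passed the filter only through the inhibitor libraries. The 11 members not tested, among them Notum, Lgr6 and Dkk1, were low. Notum, a secreted enzyme that inactivates WNT ligands, reached at most 0.212 FPKM. Without culture 249, 10 of 14 tested members were higher and 2 lower. The log2FC of cultures 242 and 251 alone was 5.84 for Nkd1, 3.99 for Axin2, 4.79 for Kremen1, 4.26 for Tcf7 and -2.44 for Myc, each still called. For Lef1 it was 0.40 (adjusted p = 0.123).

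**Figure D3:**
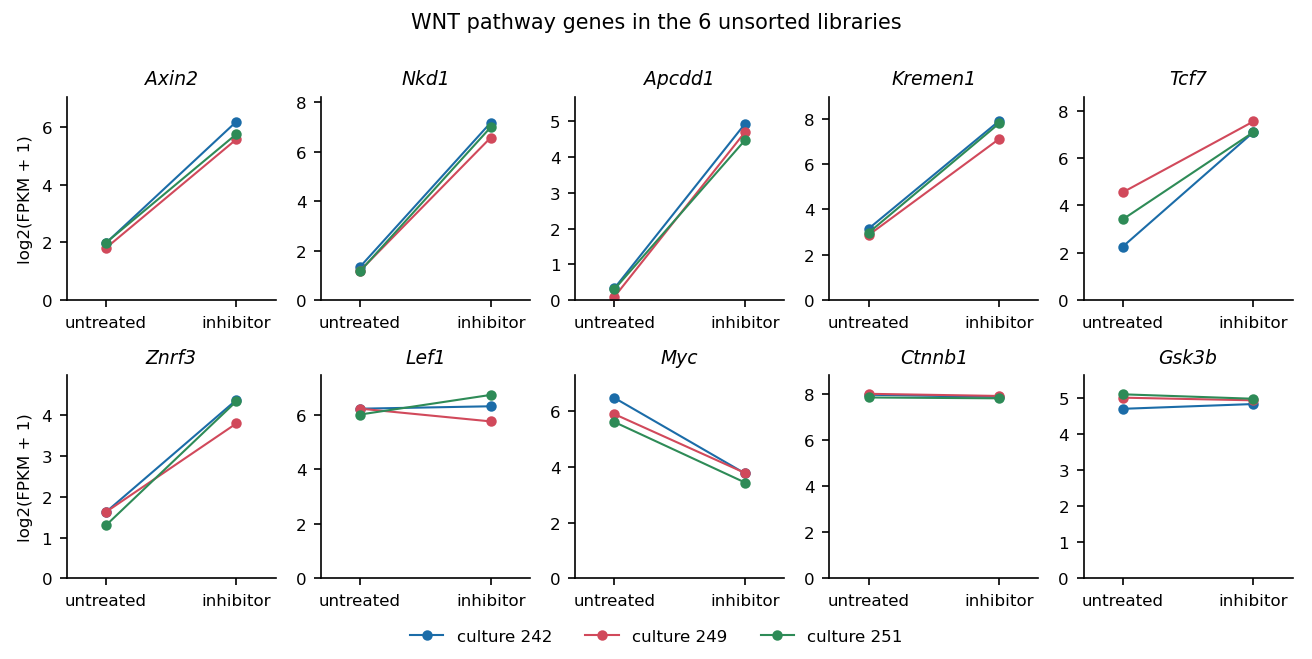
Levels of 10 WNT pathway genes as log2(FPKM + 1) in untreated and inhibitor libraries, with 1 line per culture and a vertical axis from 0 in each panel. Axin2, Nkd1, Apcdd1, Kremen1, Tcf7 and Znrf3 are higher and Myc is lower in each culture, whereas Lef1, Ctnnb1 and Gsk3b were not called.

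The machinery upstream of these targets moved little. Ctnnb1, which encodes β-catenin, stood at 250.4, 257 and 230.5 FPKM untreated and at 234, 241 and 225 with the inhibitor (log2FC -0.08, adjusted p = 0.521). Neither Gsk3a (log2FC 0.19, adjusted p = 0.248) nor Gsk3b (-0.02, adjusted p = 0.903), the genes of the kinases that the compound targets, was called. RNA levels say nothing about the activity of the kinases or the amount of β-catenin protein. Of 24 tested members of the destruction complex list, 2 were higher, 1 lower and 21 not called. Axin2 was 1 of the 2, and the other was Tnks2, a tankyrase that marks AXIN for degradation (log2FC 0.58, adjusted p = 0.00237). Frat1, a GSK3-binding protein that keeps the kinase from AXIN, fell from 6.32, 4.77 and 8.34 to 0.898, 1.18 and 1.57 FPKM (log2FC -1.74 ± 0.208 SE, adjusted p = 0.00111). The other 21 lay between log2FC -0.42 and 0.24.

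Of 20 tested TCF/LEF factors and cofactors, 3 were higher and 6 lower (3 and 5 of 19 in cultures 242 and 251 alone). Bcl9, the adaptor that links β-catenin to Pygopus, fell from 20.1, 22.9 and 27.6 to 10.02, 11.3 and 11.2 FPKM (log2FC -1.04, adjusted p = 0.00131). The Groucho corepressor genes split, with Tle1 (log2FC -1.12) and Tle2 (-1.08) lower and Tle4 (0.58) higher. Tle2 was not called without culture 242 (adjusted p = 0.154) or 251 (0.102), and Tle4 was not called without 242 (0.0679) or 251 (0.0648). Most WNT receptors were too low to test, with 7 of 25 members passing the filter, of which 1 was higher and 3 lower in both fits. Lrp5, a coreceptor, was lower (log2FC -0.85, adjusted p = 0.00789, and 0.0526 without the filter on low values), as was Wls, the carrier that brings WNT ligands to the cell surface (-0.49, adjusted p = 0.025). Without culture 242 or 251 Wls was not called (0.0822 and 0.117). The ligand gene Wnt5b rose from 4.27, 2.80 and 3.03 to 11.1, 7.11 and 11.4 FPKM (log2FC 1.31, adjusted p = 0.00209). Dkk3, a relative of the DKK antagonists, fell from 5.58, 6.59 and 6.97 to 1.11, 0.799 and 1.53 (log2FC -1.79, adjusted p = 0.000895).

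Beyond the pathway list, the largest rises were of genes nearly silent in untreated cells. Of the tested genes, 42, of which 36 are protein coding, were below 1 FPKM in every untreated library and at 5 FPKM or more in every inhibitor library. Such genes pass the filter only through the inhibitor libraries. The largest log2FC was that of H2-Q2, a nonclassical MHC class I gene, at 0.137, 0.349 and 0.133 FPKM untreated and 118, 107 and 139 with the inhibitor (6.66 ± 0.165 SE, adjusted p = 8.96e-06). H2-Q1 rose as well (log2FC 5.72), and because the genes of the H2-Q family are alike, the split of fragments between them is uncertain. The adenylate kinase gene Ak8 went from 0.911, 2.73 and 0 to 200.2, 148 and 147 FPKM (log2FC 6.41). Mmp15, a membrane-bound matrix metalloprotease, was listed at 0 in every untreated library and stood at 68.8, 49.2 and 57.8 FPKM with the inhibitor. Against a floor of 3 fragments per library this is at least 4225-, 3046- and 3125-fold higher. Cyp11b2, the aldosterone synthase of the adrenal cortex, was likewise listed at 0 and reached 38.2, 25.7 and 32.1 FPKM, at least 877-, 595- and 647-fold higher.

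The other leading rises had no common tissue. Phlda1, a pleckstrin homology protein, rose from 1.12, 2.73 and 2.46 to 169, 120.5 and 159 FPKM (log2FC 5.63). The kinase gene Mylk4 (log2FC 5.78), the retinaldehyde dehydrogenase gene Aldh1a3 (5.50), the germ cell bridge gene Tex14 (5.45) and the monocarboxylate carrier gene Slc16a5 (5.38) followed. Rai14 (5.33), Zcchc14 (5.29), the sodium channel gene Scn3a (4.68) and the calmodulin-binding protein gene Pcp4 (4.66) complete, with Nkd1, the 15 largest rises of protein coding genes. In each of these 15 the groups did not overlap, beside 38.1% of all tested genes, and the adjusted p was 5.89e-05 or less. Both follow largely from the choice, since the 15 were picked as the largest rises among the calls. In 13 of the 15, culture 249 had the lowest inhibitor level. In cultures 242 and 251 alone the 5 largest rises were Ak8, H2-Q2, H2-Q1, Mmp15 and Mylk4, with log2FC from 5.99 to 6.96.

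The genes of the pre-BCR fell furthest among abundant transcripts. The surrogate light chain consists of VpreB, encoded by Vpreb1 and Vpreb2, and the product of Igll1, and all 3 genes lie on chromosome 16. Their RefSeq promoter windows (GRCm38.p6, 250 bases before to 50 after the start, 5′ to 3′ on the gene's strand) are shown because the 3 genes moved together and because Vpreb1 and Vpreb2 are near copies. They are chr16:16869206-16869505 on the minus strand for Vpreb1, chr16:17980315-17980614 on the plus strand for Vpreb2 and chr16:16863936-16864235 on the minus strand for Igll1. Capitals mark the bases of a shared ungapped stretch that are identical in Vpreb1 and Vpreb2.
Vpreb1: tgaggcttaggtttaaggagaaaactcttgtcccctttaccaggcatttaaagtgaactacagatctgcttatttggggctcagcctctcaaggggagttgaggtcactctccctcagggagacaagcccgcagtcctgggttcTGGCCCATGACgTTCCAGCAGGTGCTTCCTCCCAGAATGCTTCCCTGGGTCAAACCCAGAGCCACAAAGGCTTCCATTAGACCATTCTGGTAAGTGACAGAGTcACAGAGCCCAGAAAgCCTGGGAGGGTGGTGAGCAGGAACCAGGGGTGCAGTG
Vpreb2: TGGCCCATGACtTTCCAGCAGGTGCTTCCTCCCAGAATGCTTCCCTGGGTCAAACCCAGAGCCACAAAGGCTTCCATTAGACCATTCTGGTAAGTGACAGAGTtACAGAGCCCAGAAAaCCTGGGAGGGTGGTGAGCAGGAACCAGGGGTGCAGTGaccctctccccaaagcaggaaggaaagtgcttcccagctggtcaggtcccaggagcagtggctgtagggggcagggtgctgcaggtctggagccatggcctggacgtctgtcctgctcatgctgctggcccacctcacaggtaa
Igll1: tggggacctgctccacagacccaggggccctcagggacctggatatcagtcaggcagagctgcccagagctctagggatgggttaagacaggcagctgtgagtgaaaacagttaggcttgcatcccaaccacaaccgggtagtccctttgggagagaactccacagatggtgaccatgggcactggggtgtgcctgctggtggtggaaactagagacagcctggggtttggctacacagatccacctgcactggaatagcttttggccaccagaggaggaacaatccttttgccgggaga
The stretch is 156 bases long with 153 identical bases (98.1%), and it lies at bases 145 to 300 of the Vpreb1 window and 1 to 156 of the Vpreb2 window. The annotated start of Vpreb1 thus lies within the stretch, and that of Vpreb2 lies beyond its end. The stretch stops where the Vpreb1 window stops, so how far the likeness goes on was not seen. The best ungapped match of 50 or more bases of Vpreb1 with Igll1 had 45.1% identical bases, so this likeness was not seen between those windows.

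Vpreb1 stood at 2103, 1646 and 2085 FPKM untreated and at 119.9, 147 and 127 with the inhibitor (log2FC -3.88 ± 0.134 SE, adjusted p = 1.33e-05). Vpreb2 stood at 1788, 1470 and 1635 FPKM untreated and at 61.8, 82.5 and 90.6 with the inhibitor (log2FC -4.38 ± 0.146 SE, adjusted p = 1.33e-05). Since the copies share most of their sequence, the split of fragments between them is uncertain, while both fell. Igll1 stood at 1331, 1044 and 1188 FPKM untreated and at 101.0, 114 and 90.3 with the inhibitor (log2FC -3.53 ± 0.122 SE, adjusted p = 1.33e-05). For these 3 genes every inhibitor library was far below every untreated one, and culture 249 had the smallest fall for each, 11.2-fold for Vpreb1, 17.8-fold for Vpreb2 and 9.19-fold for Igll1. The log2FC of cultures 242 and 251 alone was -4.07 for Vpreb1, -4.50 for Vpreb2 and -3.70 for Igll1, all called. In bulk RNA, fewer cells of a type and less RNA per cell cannot be told apart.

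The signalling parts of the receptor fell less evenly. Blk, a SRC family kinase of B cells, fell from 259, 214 and 299 to 31.4, 23.3 and 49.7 FPKM (log2FC -2.91 ± 0.125 SE, adjusted p = 2.22e-05). The signalling chain gene Cd79b fell from 578, 415 and 572 to 132, 84.5 and 138 FPKM (log2FC -2.15), whereas its partner Cd79a fell from 499, 398 and 1121 to 232, 178 and 732 (log2FC -0.96). The groups overlapped for Cd79a and not for Cd79b. Cd79a was called within cultures and not without the pairing (adjusted p = 0.337). The adaptor Blnk (log2FC -1.55), the kinase Btk (-1.13) and the inhibitory receptor Cd22 (-2.85, not called without the filter, 0.0643) were lower too, whereas the kinase Syk stood at 178, 174 and 230 FPKM against 226, 184 and 202 (log2FC 0.08, adjusted p = 0.634). Il7r, the receptor of the cytokine in the medium, was not called either (log2FC 0.04, adjusted p = 0.809). Of the 29 tested pre-BCR and pro/pre-B genes, 20 were lower, 2 higher and 7 not called, with a median log2FC of -0.99. Without culture 249, 19 were lower and 2 higher, Cd93 and the cytokine receptor gene Flt3. Higher in the fit of 3 cultures were Cd93 (log2FC 0.73, not called without the pairing, adjusted p = 0.0998), an early B lineage surface gene, and the stem cell factor receptor Kit (0.56). Kit was not called without culture 242 (adjusted p = 0.111) or 249 (0.0536) or without the pairing (0.67).

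**Figure D4:**
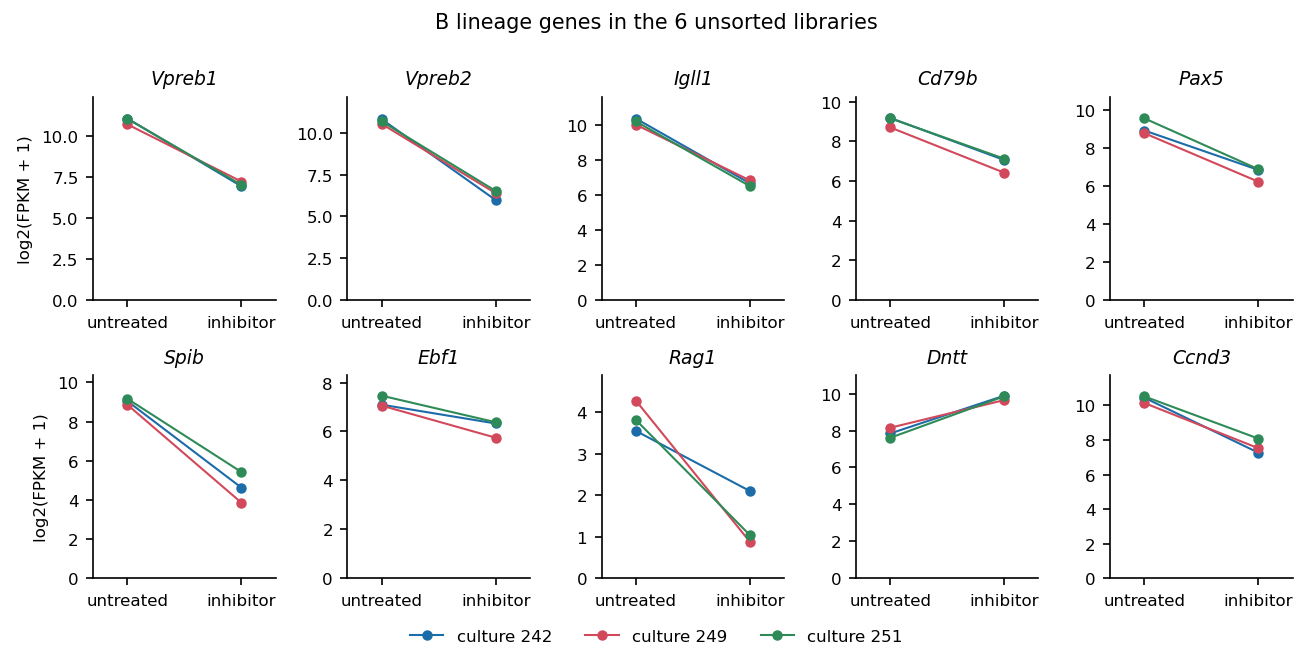
Levels of 10 B lineage genes as log2(FPKM + 1) in untreated and inhibitor libraries, with 1 line per culture and a vertical axis from 0 in each panel. Dntt is higher and the other 9 genes are lower with the inhibitor in each culture, and the surrogate light chain genes run nearly in parallel.

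Transcription factors of the B lineage were lower more often than higher, and Spib was among the 15 largest falls. Spib encodes a factor of the ETS family, and it stood at 524, 461 and 570.4 FPKM untreated and at 23.7, 13.5 and 41.9 with the inhibitor (log2FC -4.38 ± 0.211 SE, adjusted p = 2.93e-05). Pax5, which commits cells to the B lineage, went to 113, 73.2 and 116 FPKM (log2FC -2.43 ± 0.126 SE, adjusted p = 3.82e-05). Ebf1, the factor upstream of Pax5, changed less, from 136, 132 and 175 to 79.3, 52.7 and 82.1 (log2FC -1.05, adjusted p = 0.000843). For these 3 genes no inhibitor library reached an untreated one. Without culture 249 the log2FC was -4.07 for Spib and -2.37 for Pax5, both called. Bcl11a (log2FC -3.33), the octamer factor gene Pou2f2 (-3.19) and Irf8 (-2.05), an interferon regulatory factor of B and myeloid cells, fell as well. The E protein genes diverged. Tcf3, which encodes E2A, fell from 491, 359 and 513 to 262, 180 and 266 FPKM (log2FC -0.95), while Tcf12, which encodes HEB, rose from 54.6, 59.4 and 72.4 to 341, 220 and 362 (log2FC 2.27 ± 0.142 SE, adjusted p = 7.01e-05). Id3, an inhibitor of E proteins, fell from 130.1, 102 and 164 to 14.2, 11.2 and 33.3 (log2FC -2.82), and Id2 was not called (-0.08, adjusted p = 0.549). Of 6 tested E protein and ID genes, 4 were lower and 1 higher, and 3 and 1 in cultures 242 and 251 alone.

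Other factors rose. Lmo2, a bridging protein of stem and erythroid cells, stood at 10.2, 27.2 and 9.73 FPKM untreated and at 180.5, 156 and 158 with the inhibitor (log2FC 3.46 ± 0.280 SE, adjusted p = 0.0002). Its groups did not overlap. Irf4, needed for light chain recombination and plasma cells, rose from 42.0, 35.3 and 56.4 to 148, 75.5 and 149 FPKM (log2FC 1.42), and Myb, a factor of proliferating precursors, from 164, 157 and 183 to 324, 240.2 and 384 (log2FC 0.88). Ikzf1, which encodes Ikaros, stood at 162, 131 and 195 FPKM against 185, 137 and 173 and was not called (adjusted p = 0.848). Of the 32 B lineage transcription factors, all tested, 17 were lower, 7 higher and 8 not called, with a median log2FC of -0.41. Cultures 242 and 251 alone gave 14 lower and 8 higher of 31. Of the 11 B lineage identity markers, 10 were lower and Ptprc, which encodes the common leukocyte antigen CD45 and its B220 form, was higher (log2FC 0.66, adjusted p = 0.0053). Without the filter on low values Ptprc was not called (adjusted p = 0.0507). In cultures 242 and 251 alone 10 were lower and 1 higher.

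Genes of V(D)J recombination went in opposite directions. Rag1 and Rag2 encode the recombinase, and Dntt encodes terminal transferase, which adds bases to the joints of heavy chain genes. Rag1 fell from 10.7, 18.4 and 13.0 to 3.29, 0.84 and 1.06 FPKM (log2FC -2.54 ± 0.349 SE, adjusted p = 0.00201) and Rag2 from 6.22, 9.49 and 2.69 to 1.28, 0.398 and 0.0295 (log2FC -2.14, adjusted p = 0.00189). Dntt rose from 228, 283 and 194 to 944, 799.8 and 921 FPKM (log2FC 1.93 ± 0.144 SE, adjusted p = 0.000146). None of the 3 genes had overlapping groups. Hmgb1, a DNA-bending cofactor of the recombinase, was lower (log2FC -0.89) and the end-joining gene Xrcc6 higher (0.57, not called without the filter, adjusted p = 0.0521). Of 14 tested members, 4 were lower, 2 higher and 8 not called, among them Lig4, Xrcc5 and Prkdc of the end-joining machinery. Cultures 242 and 251 alone gave the same counts.

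Genes of later B cell stages were mostly lower. Tnfrsf13c, the receptor for the survival factor BAFF, went from 18.5, 10.8 and 24.1 to 0.267, 0.0947 and 0.708 FPKM (log2FC -3.75 ± 0.197 SE, adjusted p = 3.82e-05). Of 20 tested immature and mature B cell genes, 15 were lower, 3 higher and 2 not called, with a median log2FC of -1.03, against 12 lower and 4 higher of 18 in cultures 242 and 251 alone. Among them are MHC class II genes, for example H2-Ab1 at 29.5, 167 and 45.6 FPKM untreated and 4.77, 64.3 and 9.24 with the inhibitor. In both groups H2-Ab1 was highest in culture 249, the culture with the highest myeloid marker sums. It fell within each culture (log2FC -1.98), and the lowest untreated level was below the inhibitor level of culture 249. The part of non-B cells in these MHC class II levels was not tested. Cd69, an activation marker, rose from 13.3, 16.8 and 12.3 to 96.4, 40.7 and 55.9 FPKM (log2FC 2.03), and the follicular homing receptor gene Cxcr5 was higher as well (1.13). Ccr7, the receptor that guides lymphocytes to lymph nodes, fell (log2FC -1.91). Without the filter Cxcr5 (adjusted p = 0.0542) and Ccr7 (0.054) were not called, and H2-Ab1 was not called without the pairing (0.235).

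Of 12 tested plasma cell genes, 6 were lower and 4 higher, and 6 and 5 of 13 in cultures 242 and 251 alone. Prdm1, which encodes Blimp-1, the repressor that drives plasma cell formation, rose from 0.335, 1.53 and 1.29 to 37.2, 22.2 and 37.5 FPKM (log2FC 4.04 ± 0.295 SE, adjusted p = 0.000135). The groups lay far apart. Tent5c was higher (log2FC 2.45), as was Edem1 of the endoplasmic reticulum (1.85). Xbp1, the partner of Blimp-1 in secretion, stood at 359, 323 and 260 FPKM against 484, 334 and 467 and was not called (log2FC 0.44, adjusted p = 0.0606). The plasma cell surface gene Sdc1 (-1.14) and Derl3 (-2.09), which clears misfolded proteins, were lower.

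Further large falls concerned genes with no shared role in B cells. H19, an imprinted noncoding RNA, fell from 157, 92.4 and 103 to 0.0492, 0.228 and 2.93 FPKM (log2FC -6.07 ± 0.409 SE, adjusted p = 9.72e-05). H19 is no protein coding gene and was named after its values were seen. Its neighbour Igf2 stood at 0.213 FPKM or less in these 6 libraries. Fgd2, an exchange factor for the GTPase CDC42, went from 187, 133 and 131 to 1.77, 8.21 and 4.14 FPKM (log2FC -4.88 ± 0.362 SE, adjusted p = 0.000144). Heyl, a transcription factor related to Notch targets, went from 70.1, 55.4 and 74.8 to 2.87, 0.927 and 2.54 (log2FC -4.50). Syndig1l (-4.56), the fatty acid hydroxylase gene Cyp4f18 (-4.41), Vat1l (-4.31), Sh2d5 (-4.13) and the ATP receptor gene P2rx3 (-4.05) fell by similar amounts. The protease gene Tmprss3 (-3.97), Adprhl1 (-3.90) and Sytl1 (-3.79) were also among the 15 largest falls. Of the 1320 genes at 100 FPKM or more in the untreated mean, 33 were called at least 4-fold lower and 3 at least 4-fold higher. The 3 are the phosphatase gene Cdc25b, Anxa1 and the nucleoside carrier gene Slc29a1. Genes that passed 100 FPKM only with the inhibitor are outside this count, which therefore says nothing on the balance of rises and falls. A mean can also pass 100 FPKM through 1 culture, as for Gzmc at 31.7, 477 and 83.4 FPKM untreated. Anxa1 had an untreated mean of 125 FPKM with a standard deviation of 132.

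Feedback genes of cytokine signalling changed while the receptor did not pass the test. Socs3, an inhibitor of JAK kinases, fell from 68.0, 70.3 and 62.7 to 4.97, 6.55 and 6.28 FPKM (log2FC -3.30 ± 0.128 SE, adjusted p = 1.54e-05). The PIM kinase genes, both targets of STAT5, moved apart. Pim1 fell from 224, 244 and 214 to 48.8, 39.0 and 52.8 FPKM (log2FC -2.26), and Pim2 rose from 28.9, 50.6 and 30.6 to 185, 145 and 137 (log2FC 2.09, adjusted p = 0.000391). Stat5a rose (log2FC 1.43), as did Stat5b (0.88). Of 13 tested members of the IL7 receptor, JAK, STAT5 and SOCS list, 5 were lower and 4 higher, and cultures 242 and 251 alone gave 5 and 5. Of 19 tested FOXO target genes, 7 were lower and 4 higher (6 and 4 in cultures 242 and 251 alone). Klf2, a factor of quiescent lymphocytes, fell from 8.97, 9.49 and 12.4 to 0.462, 3.28 and 0.971 FPKM (log2FC -2.28), and the insulin receptor substrate gene Irs2 rose from 1.69, 3.12 and 3.08 to 11.4, 10.2 and 11.8 (log2FC 1.77). Some Notch-related genes fell. Hes1, a transcriptional repressor, went from 36.8, 26.9 and 28.8 to 4.68, 4.01 and 3.85 FPKM (log2FC -2.61), and Hes5 (-2.16) and the Notch regulator Dtx1 (-2.45) were lower in each culture. Notch1 itself was not called (log2FC -0.34). Of 15 tested Notch and T lineage genes, 5 were lower and 3 higher, and 4 and 3 of 14 in cultures 242 and 251 alone.

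Cell cycle genes of G1/S were lower more often than higher, and most of G2/M were not called. Ccnd3, the D-type cyclin of pre-B cells, stood at 1385, 1121 and 1460 FPKM untreated and at 152, 182 and 269 with the inhibitor (log2FC -2.74 ± 0.144 SE, adjusted p = 3.82e-05). Ccnd2, the other D-type cyclin of these cells, was slightly higher (log2FC 0.39, adjusted p = 0.0333), a call lost without culture 242 (0.18) or 251 (0.122). Cdk6, a kinase partner of the D-type cyclins, rose from 26.8, 33.3 and 24.0 to 118, 96.0 and 125 FPKM (log2FC 1.98). The inhibitor gene Cdkn2a was lower (log2FC -1.44). Of 17 tested cyclin and CDK inhibitor genes, 5 were higher and 5 lower, and 4 and 4 in cultures 242 and 251 alone. Of 38 tested G1/S and DNA replication genes, 24 were lower, 2 higher and 12 not called (median log2FC -0.54), and in cultures 242 and 251 alone 16 were lower and 1 higher. Mcm7, a subunit of the replicative helicase, fell from 457, 343 and 383 to 205, 162 and 194 FPKM (log2FC -1.07, adjusted p = 0.000179). Tk1 (-1.12) and the repair gene Ung (-1.09) fell as well, and so did E2f2 (-1.14), a transcription factor of the S phase. Of 32 tested G2/M genes, 6 were higher, 2 lower and 24 not called (median 0.17), shares near the 14.1% higher and below the 16% lower of all tested genes, and 6 were higher and none lower in cultures 242 and 251 alone. Cdc25b, the phosphatase that starts mitosis, led them, with 187, 133 and 162 FPKM untreated and 763, 529 and 828 with the inhibitor (log2FC 2.12 ± 0.101 SE, adjusted p = 2.82e-05). The proliferation marker Mki67 was not called (log2FC -0.10).

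Growth genes were lower alongside Myc. Of 36 tested ribosome biogenesis genes, 19 were lower, none was higher and 17 were not called, with a median log2FC of -0.47. Without culture 249, 13 were lower and none higher. Npm1, a chaperone of the nucleolus, fell from 915, 754 and 699.6 to 431, 429 and 436 FPKM (log2FC -0.86, adjusted p = 0.00113), and the rRNA methyltransferase gene Fbl from 256, 186 and 174 to 120.1, 116 and 103 (log2FC -0.83). Mycn, a relative of Myc in early B cells, was lower (log2FC -1.62). Fbxw7, the ubiquitin ligase subunit that recognises MYC phosphorylated by GSK3, rose from 8.09, 8.31 and 9.40 to 25.8, 20.2 and 22.6 FPKM (log2FC 1.31, adjusted p = 0.000686). Of 13 tested MYC network genes, 6 were lower and 1 higher, and 6 and 2 in cultures 242 and 251 alone.

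Survival genes moved both ways. Bcl2 rose from 7.23, 12.6 and 6.90 to 31.1, 24.2 and 22.3 FPKM (log2FC 1.47 ± 0.206 SE, adjusted p = 0.00217). Bmf, a killer protein of the family, went from 64.4, 66.4 and 194 to 14.8, 17.0 and 15.3 (log2FC -2.51, adjusted p = 0.00113), where untreated 251 was the highest library. Pmaip1, another killer protein and a p53 target, rose (log2FC 1.72), and Bcl2l1 was lower (-0.74). Of 15 tested BCL2 family genes, 5 were lower and 3 higher, and 3 and 3 of 14 in cultures 242 and 251 alone. Of 23 tested p53 targets, 5 were lower and 2 higher (3 and 2 in cultures 242 and 251 alone), and Cdkn1a was lower (log2FC -0.47), a call lost without culture 249 (adjusted p = 0.0547).

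Immediate early and ERK feedback genes also went both ways. The orphan receptor gene Nr4a1, which follows antigen receptor signals, fell from 18.1, 20.2 and 22.2 to 1.44, 1.07 and 3.06 FPKM (log2FC -2.95 ± 0.201 SE, adjusted p = 0.000102). The AP-1 gene Jund (-2.41) and Egr1 (-1.44) were lower, and Klf6 (1.65) and Ier5 (1.37) higher. Of 16 tested early response genes, 6 were lower and 5 higher, and 4 and 4 in cultures 242 and 251 alone. Among 9 tested ERK feedback genes, the phosphatase gene Dusp5 fell (log2FC -2.01) and Dusp6 rose from 2.23, 8.15 and 4.03 to 16.6, 17.0 and 29.5 FPKM (log2FC 2.01, adjusted p = 0.00332, and 0.0533 without the filter). Of the 9, 4 were lower and 2 higher, and 3 and 2 in cultures 242 and 251 alone.

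Glycogen synthase gave GSK3 its name, and the share of glycogen turnover genes called was near that of all tested genes, 30.1%. Of 16 tested members, 2 were higher, 2 lower and 12 not called (2 and 1 called of 17 in cultures 242 and 251 alone), among them Gys1, the synthase (log2FC -0.10). Pygm, a glycogen phosphorylase, fell from 10.8, 7.41 and 6.30 to 0.678, 0.794 and 1.76 FPKM (log2FC -2.15). The primer protein gene Gyg was higher (1.07), a call lost without the pairing (adjusted p = 0.0814). Of 23 tested glycolysis genes, 5 were higher and 5 lower, and 5 and 4 in cultures 242 and 251 alone. Pdk1, which shuts pyruvate out of mitochondria, was higher (log2FC 0.95) and Ldha lower (-0.74). Of 31 tested cholesterol and fatty acid synthesis genes, 4 were higher and 5 lower (4 and 4 in cultures 242 and 251 alone). These shares are near the 14.1% higher and 16% lower of all tested genes. The falls were led by the desaturase gene Scd1 (-1.96) and the elongase gene Elovl6 (-1.61).

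Genes of the integrated stress response and of lysosomes were higher more often than lower. Of 29 tested stress response genes, 14 were higher and 4 lower (median log2FC 0.41), against 9 and 2 of 28 in cultures 242 and 251 alone. Atf5, a transcription factor of the response, rose from 10.5, 11.7 and 8.99 to 23.2, 33.6 and 21.1 FPKM (log2FC 1.22, adjusted p = 0.000738), and Chac1, which degrades glutathione, from 4.80, 2.09 and 6.92 to 12.3, 8.08 and 21.9 (log2FC 1.43). Without the pairing Chac1 (adjusted p = 0.0776) and other members called higher, such as Asns (0.256) and Slc7a5 (0.154), were not called. Atf4, the central factor, was higher by a small amount (log2FC 0.39) and was not called without culture 249 (adjusted p = 0.0667) or 251 (0.077). Of 30 tested lysosome and autophagy genes, 14 were higher and 2 lower (median 0.35), and 12 and 2 of 29 in cultures 242 and 251 alone. Lamp2, a protein of the lysosomal membrane, rose from 34.9, 62.4 and 46.6 to 219, 231 and 259 FPKM (log2FC 2.31 ± 0.146 SE, adjusted p = 7.19e-05). Npc1, the cholesterol exporter of lysosomes, rose from 13.9, 21.7 and 14.9 to 79.7, 76.0 and 59.9 (log2FC 2.05). Tfeb, a transcription factor for lysosome genes, was lower (-1.10). Several lysosomal proteases were far higher in culture 249, for example Ctsd at 655 and 2181 FPKM there against 142 to 237 in the other 4 libraries. The share of myeloid cells in these protease levels was not tested, and Ctsd was not called without culture 249 (adjusted p = 0.0614) or 251 (0.0866) or without the pairing (0.643).

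Inflammatory lists were mixed. Of 18 tested NF-kB genes none was higher and 4 were lower, and of 19 interferon response genes 2 were higher and 4 lower. In cultures 242 and 251 alone, 3 of 18 NF-kB genes were higher and 3 lower, and 1 of 18 interferon genes was higher and 7 lower, beside 12.1% higher and 13.6% lower of all genes tested there. Of 18 tested genes for chemokines, their receptors and adhesion, 6 were higher and 6 lower (4 and 5 of 15 in cultures 242 and 251 alone). The chemokine gene Xcl1 fell from 4.65, 37.2 and 7.18 to 0.0398, 2.26 and 0 FPKM (log2FC -3.01), and Cxcr4, which holds B cell precursors in the bone marrow, was higher (0.83, adjusted p = 0.00187).

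**Figure D5:**
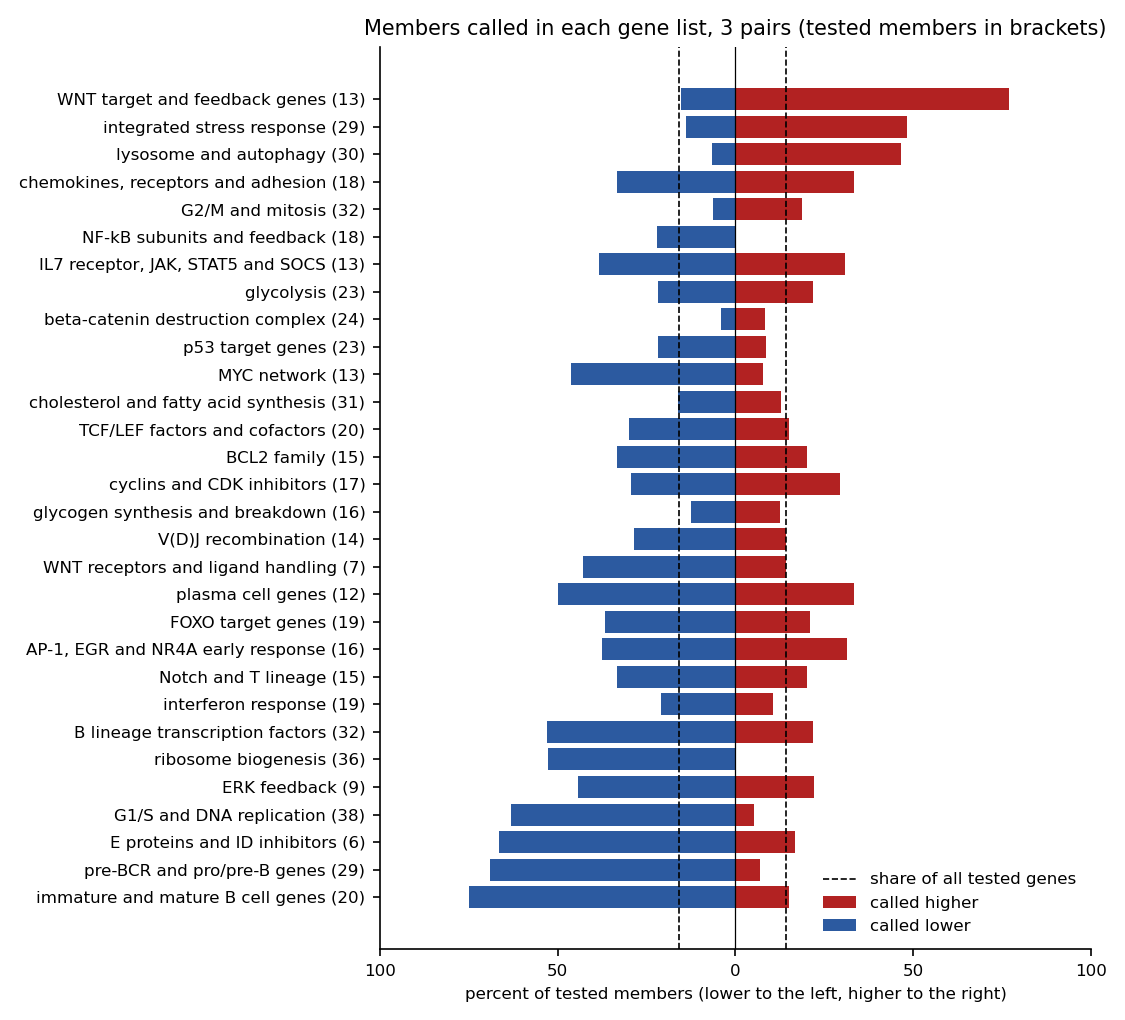
Percent of tested members called lower (left, blue) and higher (right, red) in each of the 30 process lists in the fit of 3 cultures, ordered by the median log2FC of the list. Dashed lines mark the share of all tested genes, 16% lower and 14.1% higher, and the numbers after the names are tested members; WNT target and feedback genes stand at the top and immature and mature B cell genes at the bottom.

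Markers of other cell types were called in part, list by list. Of 9 tested T cell markers, 5 were higher and none lower (5 of 7 in cultures 242 and 251 alone), with summed FPKM of 132 to 134 untreated and 291 to 392 with the inhibitor. The coreceptor chain gene Cd8b1 rose from 0.191, 1.67 and 0.0362 to 19.3, 25.7 and 24.97 FPKM (log2FC 4.02 ± 0.264 SE, adjusted p = 8.51e-05). Zap70, the kinase of the T cell receptor, rose from 4.11, 6.47 and 8.15 to 51.5, 45.4 and 57.8 (log2FC 2.89). Of the genes of the T cell receptor complex, Cd3e stood at 0.934 FPKM or less in all 6 libraries, and Cd3d at 0.204 or less in cultures 242 and 251 and at 2.48 and 4.27 in culture 249. Cd3g stood at 1.76, 16.3 and 5.26 FPKM against 2.27, 14.4 and 2.48 and was not called. Of the 15 T cell markers, 11 and 13 reached 1 FPKM in the libraries of culture 249 and 4 to 8 in the other 4, and the part of T cells in these results was not tested. The neutrophil surface gene Ly6g rose from 1.40, 28.3 and 3.15 to 62.6, 73.4 and 104 FPKM (log2FC 3.58, adjusted p = 0.00497, and 0.0741 without the filter). Elane and Mpo were at 0.136 or less in the inhibitor libraries 242 and 251, and at 35.6 and 31.0 in inhibitor 249, below untreated 249. S100a8 went from 10.2, 2180 and 144 to 9.76, 1767 and 55.5 FPKM. S100a9 was also lower in each culture, and neither was called in the fit of 3 cultures. Of 9 tested neutrophil markers, 2 were higher and none lower (median log2FC -0.29), and 1 and 1 of 8 in cultures 242 and 251 alone. Ngp, the other of the 2, was not called without culture 242 or 249 (adjusted p = 0.0905 and 0.0935).

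Of 11 tested macrophage markers, 4 were higher and none lower, and in cultures 242 and 251 alone 3 were higher and 1 lower. The complement gene C1qc went from 0.0879, 13.5 and 2.75 to 2.98, 72.7 and 7.71 FPKM (log2FC 1.81). Lyz2 was not called (log2FC -0.15), at 36.7, 2317 and 131 FPKM against 27.0, 2908 and 102. Mast cell proteases fell within each culture, Tpsb2 from 114, 748 and 179 to 15.3, 194 and 27.4 (log2FC -2.48 ± 0.167 SE) and Cma1 from 39.8, 322 and 60.1 to 7.05, 90.7 and 11.4 (-2.15). Cpa3, another mast cell protease, stood at 80.2, 554 and 145 FPKM against 79.4, 601 and 112 and was not called, so the list of 10 tested members had 4 lower and none higher, as in cultures 242 and 251 alone. The groups overlap for these proteases, and their levels were highest in culture 249. Without the pairing Tpsb2 (adjusted p = 0.166), Cma1 (0.24) and C1qc (0.4) were not called.

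Of 11 tested NK and innate lymphoid markers, 7 were lower and none higher, with sums of 33.1, 287 and 79.3 FPKM untreated and 28.3, 165 and 40.3 with the inhibitor. Cultures 242 and 251 alone gave 4 lower of 10. Ncr1, an activating receptor of NK cells, went from 1.76, 15.5 and 3.25 to 0.253, 2.35 and 0.738 FPKM (log2FC -1.58), a call lost without the pairing (adjusted p = 0.183). The platelet chemokine gene Pf4 rose from 1.09, 51.3 and 2.66 to 8.72, 833 and 32.9 (log2FC 3.14 ± 0.297 SE, adjusted p = 0.0004), and without the pairing it was not called (0.308). Of 4 tested erythroid and megakaryocyte markers 3 were higher, as were 3 of 3 without culture 249. The erythroid genes Hba-a2 and Hbb-bs were listed at 0 in all 6 libraries. Of the 2 tested stromal markers Vim, an intermediate filament that lymphocytes also carry, rose from 202, 359 and 188 to 699, 741 and 514 FPKM (log2FC 1.43). The other, Thy1, stood at 38.8, 123 and 41.1 against 109, 96.1 and 84.9 and was called higher without culture 249 (adjusted p = 0.000886) and not with it (0.125). Col1a1, a collagen gene of fibroblasts, was too low to test, at 0.857 or less. Of 5 tested dendritic cell markers 2 were lower (3 lower and 1 higher in cultures 242 and 251 alone), and of 4 tested stem and progenitor markers 2 were lower and 1 was higher (2 lower and none higher of 3 in cultures 242 and 251 alone). How far changes in the number of these cells enter the results was not tested.

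Culture 249 moved apart from the others for a few genes, which are given as a description without a test. Ctsh, a lysosomal protease, stood at 1.78, 46.9 and 3.88 FPKM untreated and at 153, 154 and 127 with the inhibitor. Osbpl3, a lipid transfer protein gene, went from 3.20, 15.2 and 4.86 to 84.6, 53.5 and 72.3. For both, untreated 249 was the high library and the inhibitor libraries were close together. Grn, the growth factor progranulin, stood at 194, 240 and 199 FPKM untreated and at 19.9, 472 and 41.6 with the inhibitor, lower in cultures 242 and 251 and higher in 249. The protease gene Mmp14 did likewise, with 7.02, 38.4 and 9.13 against 0.246, 55.8 and 1.67. Spp1, the secreted protein osteopontin, went from 13.5, 47.0 and 9.89 to 5.97, 299 and 12.8, and Igf1 from 2.38, 4.75 and 3.51 to 0.731, 20.4 and 1.52. Sumo2, a ubiquitin-like modifier gene, ran the other way, with 27.8, 87.7 and 62.7 against 92.0, 45.3 and 198. Slfn1 barely moved in 249 (8.67 and 9.19), while Cdkn1c, an inhibitor of cyclin-dependent kinases, moved most there (0.893 and 18.4). In cultures 242 and 251 alone the 5 largest falls of protein coding genes were Fgd2, Pld4, Cyp4f18, Syndig1l and Vpreb2. Pld4, a nuclease of B cells and macrophages, went from 51.9 to 0.231 FPKM in 242 and from 56.1 to 14.7 in 249.

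Promoter windows were searched for the core of the TCF/LEF motif, CTTTGA, and the longer CTTTGAT, on both strands. The longer form contains the shorter. Windows were found for 8681 of the 12685 tested genes, some with several windows. CTTTGA was present in 14.2% of the windows of genes called at least 2-fold higher, in 9.37% of those called at least 2-fold lower and in 16.0% of all 32851 windows. For CTTTGAT these shares were 3.95%, 1.997% and 3.73%. Among the windows of tested genes the shares were 11.99% and 2.55%. These matches are letters in a window of 300 bases and say nothing about binding.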

How the data were processed

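The deposited table holds FPKM values per gene and library, which the authors computed from their reads. The submitters' processing notes name HISAT2, HTSeq, Cufflinks and the GRCm38 (mm10) build, with versions and gene lengths not given in the sources used here. Whether counting used strand is not stated, so overlapping and antisense genes are uncertain. The low values are whole multiples of what 1 fragment is worth. Whole fragments were recovered for 25186 genes, with 100% of their values rebuilt within a relative tolerance of 1e-08, which gave the depths. 0 value columns were left out.

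The untreated and inhibitor libraries of the same number were analysed as pairs. Their deviations from the group means correlated with r = 0.609 (242), 0.77 (249) and 0.36 (251) over 12685 genes, each above 0.1. Across numbers, untreated 242 with inhibitor 251 gave 0.383 and untreated 251 with inhibitor 242 gave 0.253. Combinations of 249 with another number gave -0.657 to -0.386. The check therefore does not single out the pair of 251, whose pairing rests on the labels. log2(FPKM + 1) was fitted with limma 3.58.1 in R 4.3.3 with the replicate number as a block, keeping genes that reached 1 FPKM in 3 or more libraries (2 or more for cultures 242 and 251 alone). Genes were called at a Benjamini-Hochberg adjusted p under 0.05. Summaries and figures used Python 3.11.15, numpy 2.4.6, pandas 2.3.3 and matplotlib 3.10.9. The fit was tested on simulated data of 3 pairs, in which far fewer genes were changed than were called here. It called 78% of 50 genes changed 4-fold, 28% of 75 changed 2-fold, 0% of 73 changed 1.5-fold, and 2 of 12489 unchanged genes. Promoter windows are from RefSeq (GRCm38.p6).

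The comparison, its members and the gene lists were chosen with earlier results of these data known. Named by rule were the 15 protein coding genes with the largest and the 15 with the smallest log2FC among the calls, 5 each way for cultures 242 and 251, up to 4 called members per list, and 5 genes each way whose change in 249 lay farthest from the others. Other genes were named after their values were seen. Alternatives were another pseudocount, other filters and normalizations, a fit without the block, all 12 libraries, voom on recovered fragments, and leaving out each culture. The sorted libraries entered only the fit of all 12. Some genes that the rule named are not reported here.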

Additional observations from a re-analysis of the deposited data

How the results depend on the processing

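The number of calls depended mainly on the filter and on the pairing. Without the filter on low values 931 genes were called higher and 1001 lower in 3 cultures, and 869 and 932 in cultures 242 and 251 alone. Without the replicate block the 3 cultures gave 1074 higher and 1218 lower. Leaving out 1 culture at a time gave 1203 to 1539 higher and 1353 to 1734 lower genes, of which 683 to 778 and 665 to 902 by 2-fold or more. With voom on recovered fragments 2165 genes were called higher and 1836 lower. Of 171 named genes that were called in 3 cultures, 55 lost the call under at least 1 alternative and 0 changed sign: 43 without the replicate block, 23 without 1 culture and 43 under the other alternatives, with genes counted under each. Of 166 called in cultures 242 and 251, 32 lost the call.

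Uncalled genes near 0 did change sign. Igf1 had a log2FC of -0.22 with a pseudocount of 0.1, and -0.90 to 0.53 when 1 culture was left out. Spp1 ranged from -0.36 to 1.49 and Lef1 from -0.19 to 0.40 when 1 culture was left out. Gsk3b had 0.023 with voom and ranged from -0.099 to 0.029. The cause was not tested. A call made without culture 249 rests on 2 cultures and 1 residual degree of freedom. Depth was similar across libraries (37.3 to 48.1 M fragments). Changes of 1.5-fold were missed in simulated data, where far fewer genes were changed than the 30.1% called here. The adjustment is stricter when few genes change, so the simulated shares do not give the power of the fit in these data.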
